A study of Sus scrofa with 8 samples.

Results

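DCT and CPEB1 are 2 of the 2389 genes that a porcine microarray measured by name in whole blood of sows, and both gave a higher signal in pregnant sows at 1 probe each. They were chosen on that difference, by matching the RefSeq transcript given for each probe to the gene, so the difference between groups is described here and not tested. All probes of both genes are reported: DCT had 2, A_72_P441414 and A_72_P170151, both designed on transcript NM_001025227, and CPEB1 had 1, A_72_P146626, on NM_001097510. Each of these 3 probes had 1 spot per array. All 3 passed the filter, which asked that 1 of the groups be well above background throughout its 4 arrays, DCT probe A_72_P170151 through the non-pregnant arrays.

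The study compared peripheral blood of 4 pregnant sows with that of 4 non-pregnant sows. Every sow was of the fifth parity and had been inseminated 14 days before the draw from its submandibular vein. The design names 3 half-sib pairs and 1 unrelated pair, and the labels do not tie the replicate number to a pair. The labels give no breed and no age, and 1 single-colour Agilent array was run for each sow.

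DCT (dopachrome tautomerase) works next to tyrosinase and TYRP1 in the melanosome, where it converts dopachrome on the way to melanin, and it is known as a marker of melanocytes and their precursors. CPEB1 binds the cytoplasmic polyadenylation element in the 3′ untranslated region of mRNAs, holds them silent, and after phosphorylation by Aurora A promotes lengthening of their poly(A) tail and translation. It is best known from oocytes, where it releases stored maternal mRNAs, and from synapses of neurons.

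Levels are log2 values of the scanner's processed signal relative to the 75th percentile of the same array, so that 0 stands for the 75th percentile. That percentile ran from 142 to 296 intensity units over the 8 arrays and was lowest on pregnant replicate 2, the share of spots well above background was 61.7% to 69.2%, and arrays correlated at r of 0.870 to 0.984. Of the 8 whole blood defining markers with a probe, all 8 were well above background on all 8 arrays, T cell receptor chain CD3E and the monocyte receptor CD14 among them. Replicates 1 and 3 of each group were on slide 1 and replicates 2 and 4 on slide 2. In blood as a whole, fewer cells of a type and less RNA per cell cannot be told apart. With 1 array per sow, neither can differences between animals and between arrays.

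At DCT probe A_72_P441414 the 4 pregnant sows, replicates 1 to 4, had levels of -0.92, -0.73, -1.58 and -0.68, and the 4 non-pregnant sows had -2.31, -3.61, -2.68 and -3.30. Every pregnant value lay above every non-pregnant value, with 0.73 between the lowest pregnant and the highest non-pregnant array. The means were -0.98 ± 0.41 in pregnant and -2.98 ± 0.59 in non-pregnant sows (SD, n = 4 each), a log2 difference of 2.00 (standard error 0.36), or 3.99-fold. Pregnant replicate 3 was the lowest of its group and the non-pregnant sows of slide 2, replicates 2 and 4, the lowest of theirs. Before scaling, the processed signal was 156, 85.6, 77.5 and 139 intensity units in pregnant sows and 46.5, 20.4, 33.3 and 17.7 units in non-pregnant sows, so the groups were apart before scaling too. The probe was well above background on 8 of 8 arrays, over a local background of 29 to 31 units in both groups.

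DCT probe A_72_P170151, designed on the same transcript, did not show this. Its levels were -3.62, -2.81, -3.55 and -4.96 in pregnant sows and -3.89, -3.73, -3.70 and -3.08 in non-pregnant sows. The groups overlapped over the whole non-pregnant range, and the lowest value of all, on pregnant replicate 4, was not well above background, whereas the other 7 arrays were. The means were -3.73 ± 0.90 in pregnant and -3.60 ± 0.36 in non-pregnant sows (SD, n = 4 each), a log2 difference of -0.13 (standard error 0.48). The sign of this small difference turned with the arrays used: leaving out pregnant replicate 4 gave 0.28, leaving out non-pregnant replicate 4 gave 0.04, and leaving out pregnant replicate 2 gave -0.44.

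The log2 differences of the DCT probes were 2.13 apart. Pregnant replicate 4 shows the disagreement most plainly. At A_72_P441414 its level was the highest of the 8 arrays, just above pregnant replicate 2 (-0.68 against -0.73). Its processed signal there was below that of pregnant replicate 1. At A_72_P170151 it was the lowest, by level and by processed signal. The second probe was read from dim spots, at 24.04, 20.3, 19.8 and 7.16 units in pregnant sows and 15.5, 18.7, 16.4 and 20.7 units in non-pregnant sows, over a local background of 33 to 36 units. The scanner software's own error estimate for it was 13.1% to 28.1% of the signal in pregnant and 12.99% to 15.2% in non-pregnant sows, against 10.2% to 10.5% and 11.4% to 17.0% for the first probe. Which part of the transcript each probe covers was not analysed here.

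CPEB1 probe A_72_P146626 had levels of -0.71, 0.09, -0.81 and 1.46 in pregnant sows and -1.35, -1.48, -1.68 and -2.06 in non-pregnant sows. All pregnant values lay above all non-pregnant values, with a gap of 0.54, and the pregnant group was spread widely because replicate 4 stood well above the other 3. The means were 0.0044 ± 1.05 in pregnant and -1.64 ± 0.31 in non-pregnant sows (SD, n = 4 each), a log2 difference of 1.65 (standard error 0.55), or 3.13-fold. With pregnant replicate 4 left out the difference was 1.16, and without any other single array it was 1.51 to 1.92. The processed signal was 180, 151, 132 and 612 units in pregnant sows and 90.5, 89.3, 66.8 and 41.95 units in non-pregnant sows. The probe was well above background on 8 of 8 arrays, and no second CPEB1 probe was named on the array.

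**Figure D1:**
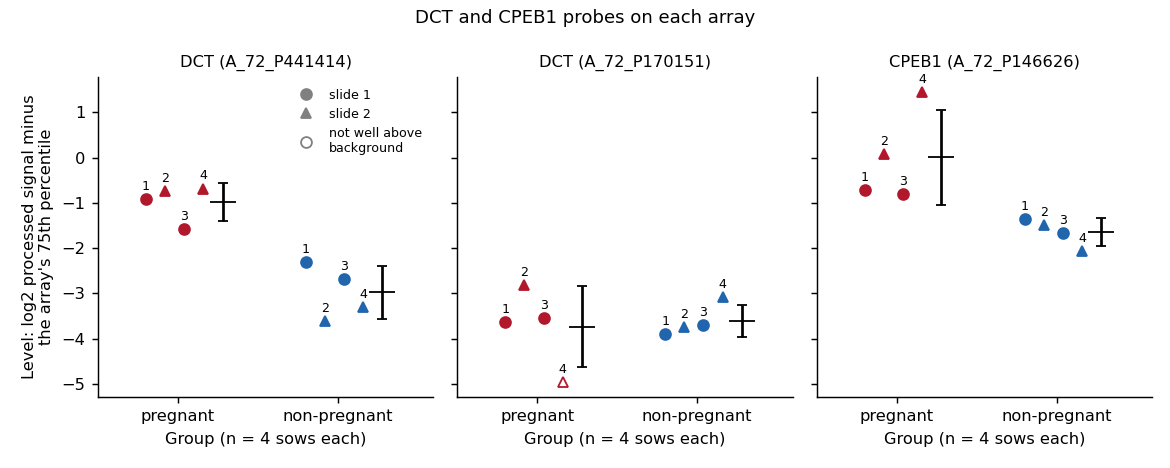
Level of each DCT and CPEB1 probe on each array (log2 processed signal minus the array's 75th percentile), pregnant sows in red at the left of each panel and non-pregnant sows in blue at the right, numbered by replicate, with circles for slide 1, triangles for slide 2 and open symbols where the spot was not well above background. The black bar is the mean with its SD (n = 4 each): at DCT probe A_72_P441414 and at CPEB1 the groups do not overlap, and at DCT probe A_72_P170151 they do.

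For scale, spots of one probe printed at 5 places on the array, taken over 28 such probes with a signal of 15 to 650 units, had a median SD of 0.12 on the log2 scale, and the 90th percentile of these SDs was 0.38. That is the noise between spots of 1 array and leaves out differences between sows and between arrays. The SD within a group, which mixes sow, array and spot, was 0.31 to 1.05 at DCT probe A_72_P441414 and CPEB1.

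In the order of log2 difference over the 1817 named genes kept, each at its brightest kept probe, DCT (probe A_72_P441414) was rank 3 and CPEB1 rank 4. CYP21A2 (2.06) and LPAR3 (2.01) came just before DCT, and F7 (1.57) and NQO1 (1.55) just after CPEB1, NQO1 being the first gene whose groups overlapped. DCT at probe A_72_P441414, but not at A_72_P170151, and CPEB1 were 2-fold or more higher in pregnant sows with no overlap between groups. They were among 9 of the 1817 genes (0.495%) and 131 of the 26481 probes (0.495%) of which this held. The members were picked on this contrast, so nothing is read from that share. Across the named genes limma called 0 of 1817 at an adjusted p under 0.05 (0%), with 44 at an unadjusted p under 0.05, and across the probes it called 0 of 26481 (0%), with 610 at an unadjusted p under 0.05. No other testing tool was run.

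Both genes differed more on slide 2 than on slide 1. At DCT probe A_72_P441414, pregnant minus non-pregnant was 1.24 on slide 1 and 2.75 on slide 2, with 2 arrays of each group on each slide. CPEB1 gave 0.75 on slide 1 and 2.54 on slide 2, and DCT probe A_72_P170151 gave 0.21 and -0.48. The slide was not used to choose the genes, so the change of the difference between slides could be tested. It was 1.51 for DCT probe A_72_P441414 (standard error 0.58, unadjusted p = 0.0297, limma adjusted p = 0.893), 1.79 for CPEB1 (standard error 0.73, unadjusted p = 0.0372, limma adjusted p = 0.893) and -0.69 for DCT probe A_72_P170151 (standard error 0.92, limma adjusted p = 1.00). None of the 3 passed the threshold over the 26481 probes, and limma called 0 probes (0%) for this term, with 1478 at an unadjusted p under 0.05.

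The array names also number the place of each array on its slide. On slide 1 the pregnant arrays were at places 1 and 2 and the non-pregnant arrays at places 3 and 4. On slide 2 the groups alternated, with pregnant arrays at places 1 and 3 and non-pregnant arrays at places 2 and 4. On slide 2, in the order of places 1 to 4, the level of DCT probe A_72_P441414 was -0.68, -3.30, -0.73 and -3.61, and that of CPEB1 was 1.46, -2.06, 0.09 and -1.48. Both probes alternated with the group on slide 2, as they must where the groups do not overlap, so this adds nothing about place. On slide 1 place and group cannot be told apart.

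By replicate number, pregnant minus non-pregnant at DCT probe A_72_P441414 was 1.39, 2.88, 1.10 and 2.62 for replicates 1 to 4. At CPEB1 it was 0.64, 1.57, 0.87 and 3.52. At both probes these are positive because the groups do not overlap, so the sign adds nothing. At DCT probe A_72_P170151 it was 0.27, 0.93, 0.15 and -1.88, so replicate 4 alone gave that probe its negative mean.

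The higher DCT probe and the CPEB1 probe share a place on the array. The spots of an array lie in 532 rows, and DCT probe A_72_P441414 was in row 529, CPEB1 in row 532 and DCT probe A_72_P170151 in row 281. All 9 named genes that were at least 2-fold higher without overlap, from SSTR3 in row 480 to CPEB1 in row 532, had their spot in rows 480 to 532. Over all kept probes, named or not and with the DCT and CPEB1 probes among them, 373 of the 6295 probes (5.93%) in rows 400 to 532, a division made after the values were seen, lay 2-fold or more above the non-pregnant level. Before row 400 this held for 50 of 20186 probes (0.248%). Probes at least 2-fold lower were not gathered there, with 28 of 6295 (0.445%) in rows 400 to 532 and 115 of 20186 (0.57%) before row 400.

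The share of higher probes grew towards the edge where DCT and CPEB1 lay. In bands of 28 rows it was 2.83% in rows 421 to 448, 6.26% in rows 449 to 476, 8.23% in rows 477 to 504 and 10.98% in rows 505 to 532, the band of DCT probe A_72_P441414 and CPEB1. The middle of the distribution there was close to that of all probes: the median log2 difference was -0.0064 in rows 505 to 532 and -0.040 over all probes, while the SD of the differences was 0.62 in that band and 0.36 over all probes. Higher probes were more frequent on slide 2 than on slide 1, both in these rows and before row 400. In rows 400 to 532 the share 2-fold or more higher was 2.14% on slide 1 and 16.9% on slide 2, against 0.763% and 6.06% before row 400. Probes at least 2-fold lower went the other way, with 4.29% on slide 1 and 2.29% on slide 2 in rows 400 to 532. Before row 400 they were 4.72% and 2.64%.

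**Figure D2:**
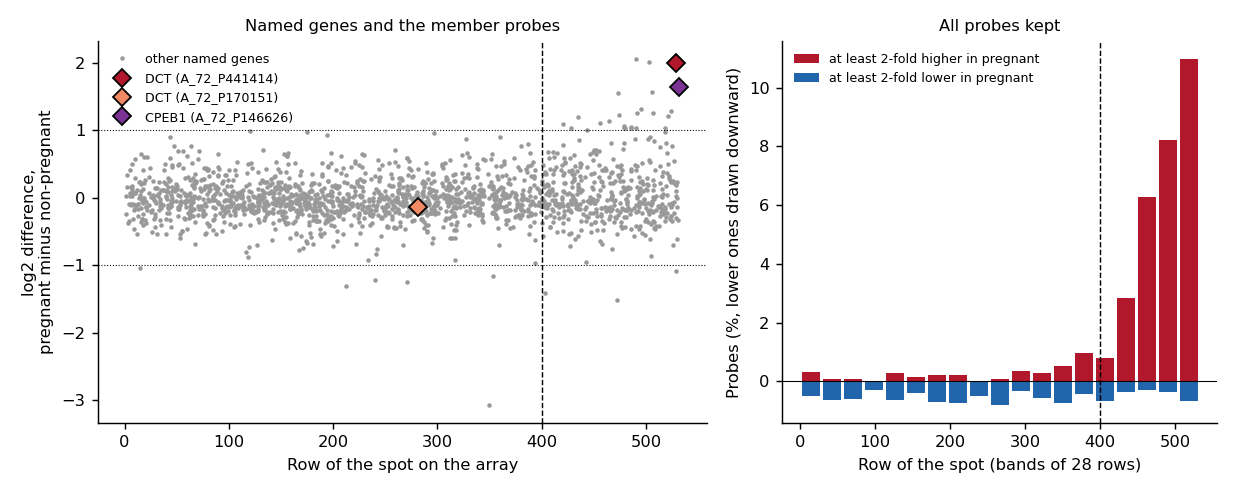
Left, log2 difference (pregnant minus non-pregnant) of each named gene against the row of its spot on the array, with the DCT and CPEB1 probes as diamonds, dotted lines at a 2-fold difference and a dashed line at row 400. Right, share of all kept probes in bands of 28 rows that were at least 2-fold higher (red, upward) or lower (blue, downward) in pregnant sows; the share of higher probes reaches 10.98% in rows 505 to 532, and no named gene before row 400 was 2-fold higher.

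Around DCT probe A_72_P441414, within 8 rows and 8 columns, 116 other probes had a median log2 difference of 0.11, with 23 of them 2-fold or more higher and 1 of them 2-fold or more lower in pregnant sows. The largest of these neighbours differed by 2.01, about as much as DCT. Around CPEB1 the median of 88 probes was 0.11, with 7 at least 2-fold higher, the largest by 3.09, and 0 lower. Around DCT probe A_72_P170151 the median of 179 probes was -0.0074, with 0 at least 2-fold higher and 0 lower. With the neighbours' median subtracted on each array, the log2 difference was 1.80 for DCT probe A_72_P441414, 1.53 for CPEB1 and -0.14 for DCT probe A_72_P170151. The medians were near 0 although some neighbours were 2-fold higher, so this subtraction could take away little. Nothing about position is read from it.

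Other genes showed the arrangement of the DCT probes, a 2-fold higher probe in the last rows and another, not 2-fold higher, elsewhere. Of the named genes with a probe at least 2-fold higher in rows 400 to 532, 16 besides DCT had kept probes before row 400 as well. Those 30 other probes had a median log2 difference of 0.0018, ran from -0.68 to 0.70, and 0 of them were at least 2-fold higher. Of all kept probes before row 400, 0.248% were, so a count of 0 of 30 is near that share. The probes in the last rows were picked for being high, so some fall towards 0 is built into this count. Without that choice, 696 probes in rows 400 to 532 lay a median of 0.084 from the mean of their gene's probes before row 400 (95th percentile 0.67). For 2129 probes before row 400, set against their gene's other probes there, the median was 0.080 (95th percentile 0.51). The part of array position in the differences of DCT and CPEB1 was not tested.

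The genes whose level ran most like DCT and CPEB1 over the 8 arrays lay in the same rows. For DCT probe A_72_P441414 the 5 highest Pearson r were LPAR3 (0.929), F7 (0.896), AQP10 (0.894), SLC23A2 (0.893) and RXFP4 (0.874), all 5 in rows 431 to 524. For CPEB1 they were GPX6 (0.928), LPAR3 (0.919), CCK (0.854), WDTC1 (0.853) and AQP10 (0.852), all 5 in rows 427 to 513. For DCT probe A_72_P170151 they were FLVCR2 (0.972), CLDN19 (0.971), CA3 (0.969), IL6R (0.960) and KLK1 (0.959), in rows 18 to 191. DCT probe A_72_P441414 and CPEB1 correlated with each other at r of 0.831. These r describe 8 arrays that share slides, depth and, for the higher probes, the group difference that chose them.

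With each group's mean removed, r between DCT probe A_72_P441414 and CPEB1 was 0.474 over the 8 arrays. The genes most like DCT probe A_72_P441414 were then HORMAD1 (0.947), SPP1 (0.926), SLC30A4 (0.830), LHX2 (0.808) and EDN1 (0.803), 1 of the 5 in rows 400 to 532. Those most like CPEB1 were ATM (0.892), COL5A1 (0.887), GPX6 (0.882), CCK (0.880) and MMD (0.877), 3 of the 5 in those rows. Of all 1817 named genes kept, 456 lay in rows 400 to 532. Those most like DCT probe A_72_P170151 were PTPA (0.983), CLDN19 (0.975), FLVCR2 (0.972), CA3 (0.971) and APOA2 (0.967), 0 of them in those rows. CLDN19, FLVCR2 and CA3 thus ran with that dim probe on both measures.

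Of 25 listed genes for melanin enzymes and melanosome proteins besides DCT, 12 had a named probe and 9 were measured, of which 5 had positive and 4 negative log2 differences with a median of 0.043, beside a median of -0.031 over all named genes. None passed the test (0 higher and 0 lower, limma adjusted p = 0.998 for each). TYR, the tyrosinase that starts melanin synthesis, and TYRP1, the enzyme next to DCT, were well above background on 0 of 8 arrays, as was MLPH, the adaptor that links melanosomes to myosin. Neither a rise nor a fall could be read from those 3. RAB27A, the small GTPase that tethers melanosomes, had a log2 difference of -0.26 (standard error 0.29), AP3B1, a subunit of the adaptor that sorts cargo to melanosomes, 0.33 (standard error 0.38), MIF, a cytokine that is also able to tautomerise a form of dopachrome, -0.13 (standard error 0.27), and HPS1, of a complex in melanosome formation, -0.09 (standard error 0.22).

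GPNMB, a glycoprotein of melanosomes that macrophages carry too, was the one gene of the list that was 2-fold higher. Its probe in row 507 had levels of 0.11, 1.38, 0.13 and -0.04 in pregnant sows and -0.79, -1.12, -0.34 and -1.23 in non-pregnant sows, with no overlap and a log2 difference of 1.26 (standard error 0.36). Of its other 3 probes, that in row 437, well above background on 7 of 8 arrays, gave 0.30. Those in rows 114 and 323 were well above background on 5 and 0 of 8 arrays and failed the filter. The probe in row 114 gave -0.21, and nothing is read from the one in row 323.

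Among 17 regulators of melanocytes, 11 had a named probe and 8 were measured, 4 positive and 4 negative. Their median was -0.024, and 0 passed the test (limma adjusted p = 0.998 for each). MITF, the transcription factor that drives DCT in melanocytes and is also present in myeloid cells, gave 0.22, 0.23 and 0.46 at 3 probes in rows 127 to 266, with overlapping groups at the probe used (standard error 0.32). KIT, the receptor for stem cell factor, gave 0.13, 0.29 and 0.12 at 3 probes. SOX10, which acts with MITF on DCT, had a log2 difference of 1.10 (standard error 0.60) in row 420 with overlapping groups: its levels were -2.50, 0.39, -1.06 and -0.73 in pregnant sows and -1.96, -2.01, -1.17 and -3.15 in non-pregnant sows. POMC, the precursor of melanocortins, differed by -0.40, the ligand EDN3 by -0.33 and CTNNB1, the beta-catenin gene, by -0.19, while KITLG, EDNRB and ASIP were well above background on 0 of 8 arrays.

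Partners of CPEB1 were sparsely named on the array. Of 19 listed members of the CPEB family and of the polyadenylation machinery, 2 had a named probe: AURKA, the kinase that activates CPEB1, at -0.18 (standard error 0.45), and CDK1, which acts on CPEB1 during oocyte maturation, at 0.02 (standard error 0.32). CPEB2, CPEB3 and CPEB4, the other family members, had no named probe. Of 28 listed proteins of repression and deadenylation, 4 were measured, with a median of -0.21: ZAR1, a translational regulator of oocytes, at 0.49 (standard error 0.90), and the deadenylation factors TOB1 at -0.15, BTG1 at -0.26 and BTG2 at -0.29. In both lists 0 genes passed the test (limma adjusted p = 0.998 for each).

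Of 13 mRNAs known as targets of cytoplasmic polyadenylation, 7 had a named probe and 5 were measured, 2 with positive and 3 with negative log2 differences and a median of -0.05. The oocyte growth factor BMP15 differed by 0.66 (standard error 0.32) and cyclin CCNB1 by 0.24. The transcription factor MYC differed by -0.42 (standard error 0.22), the oocyte growth factor GDF9 by -0.41 and the kinase MOS by -0.05. None passed the test (limma adjusted p = 0.998 for each). The spots of MOS and GDF9 were in rows 444 and 476.

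**Figure D3:**
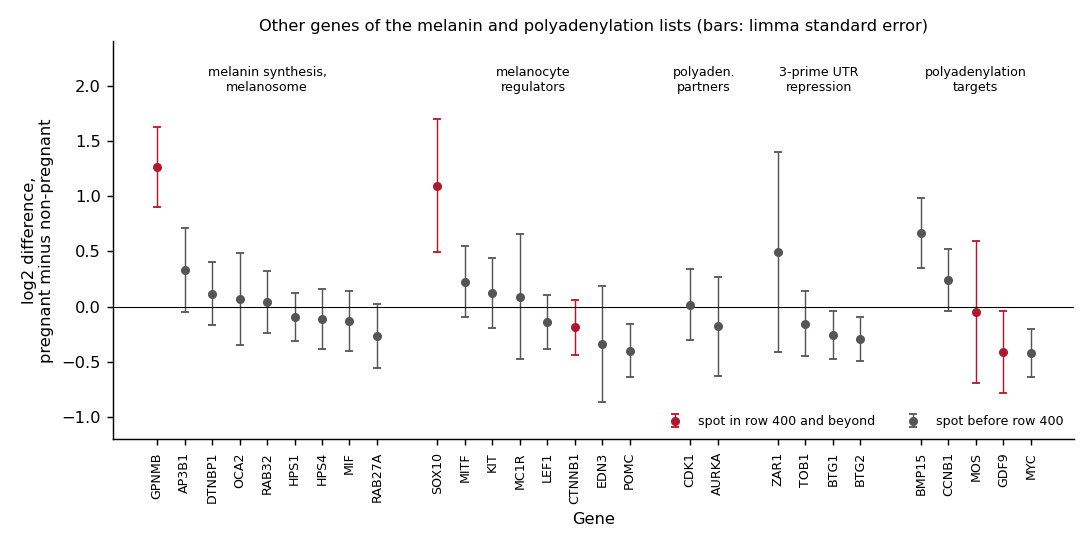
Log2 difference (pregnant minus non-pregnant, n = 4 each, bars are limma standard errors) of the measured genes in 5 lists of melanin and polyadenylation genes, without DCT and CPEB1. Red marks genes whose spot lay in rows 400 to 532 and grey the others: GPNMB (1.26) and SOX10 (1.10) stand highest and both are red, and none of the genes passed the test.

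Over all named genes 44.6% of log2 differences were positive. All 7 measured monocyte and macrophage markers had positive log2 differences, with a median of 0.44, and their summed level ran from 6.19 to 6.46 in pregnant and from 5.66 to 6.17 in non-pregnant sows. A summed level adds the linear values of the markers before log2 is taken, so the brightest weigh most. Among the monocyte and macrophage markers that was LYZ, with means of 5.14 in pregnant and 4.49 in non-pregnant sows. All 8 measured T cell markers were negative (median -0.25, summed level 5.40 to 5.92 in pregnant and 5.82 to 6.07 in non-pregnant sows), as were all 8 measured cytotoxic lymphocyte markers (median -0.54, 6.11 to 6.96 in pregnant and 6.58 to 7.56 in non-pregnant sows). Of 9 measured neutrophil markers 7 were positive and 2 negative (median 0.21, summed level 8.07 to 8.88 in pregnant and 8.16 to 9.43 in non-pregnant sows), of 7 platelet markers 1 was positive and 6 negative (median -0.26, 10.41 to 11.6 in pregnant and 10.65 to 11.2 in non-pregnant sows), and all 3 B cell markers were negative (median -0.22, 3.68 to 4.09 in pregnant and 3.59 to 4.61 in non-pregnant sows). The 1 erythroid marker measured, KLF1, gave -0.22. None of these markers passed the test (limma adjusted p = 0.998 for each). Their part in the differences of DCT and CPEB1 was not tested. Among defining markers of melanocytes, TYR and TYRP1 were well above background on 0 of 8 arrays, and PMEL and MLANA had no named probe. Other genes of the melanin and melanocyte lists were well above background on 8 of 8 arrays at the probe used, among them OCA2 (log2 difference 0.07) and MC1R (0.09).

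The size of the difference at the higher probes moved with the background correction more than with the scaling. At DCT probe A_72_P441414 quantile normalization gave 1.96, scaling on the median 1.98 and the authors' deposited table of log2 values a difference of 1.97, while normexp background correction gave 0.82. CPEB1 gave 1.65 with quantile normalization, 1.63 with the median, 1.65 in the authors' deposited table and 1.05 with normexp. Normexp adds a constant of 50 units to each signal, which is more than the processed signal of DCT on all 4 non-pregnant arrays, so log2 differences of spots this dim come out smaller by construction. It also starts from median spot and background intensities, and the share of the offset in the change was not tested. The direction was the same under each of these settings for both probes, and under each the probe A_72_P170151 stayed between -0.19 and -0.06.

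**Figure D4:**
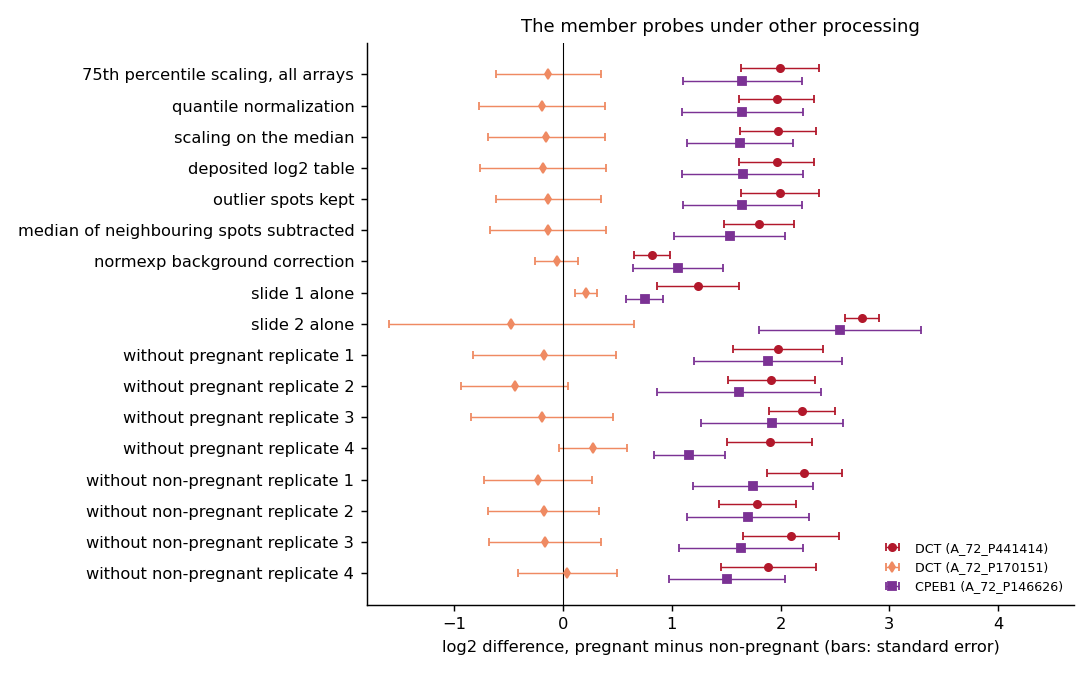
Log2 difference (pregnant minus non-pregnant) of the DCT and CPEB1 probes under other scalings, background corrections, each slide alone and with 1 array left out, with standard errors as bars. DCT probe A_72_P441414 runs from 0.82 to 2.75 and CPEB1 from 0.75 to 2.54, all above 0, while DCT probe A_72_P170151 lies on both sides of 0.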

How the data were processed

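RNA from whole blood of 8 sows was labelled with Cy3 and hybridised to single-colour Agilent arrays. The authors deposited 1 scanner file per array. Per the file headers it came from Agilent Feature Extraction 10.7.3.1, given as version 10.7 in the submitters' processing notes. Per the file headers, the deposited processed signal is an intensity on a linear scale from which the software had subtracted background, and it was not scaled between arrays. A flag for spots well above background, other flags and a background-subtracted signal are deposited with it. The processed signal was above the background-subtracted signal on every array at DCT probe A_72_P441414 and CPEB1. At DCT probe A_72_P170151 it was below it on every array. On pregnant replicate 4 the values were 139 against 108 units, 612 against 522 and 7.16 against 8.26, in that order. What the software did beyond subtracting background was not analysed here. How the authors normalized their deposited log2 table is stated nowhere in the labels or files. Its columns correlated at r of 0.99895 or higher with their arrays, and all 8 columns had quartiles of 2.19, 5.03 and 7.76. Equal quartiles are what quantile normalization leaves. Direction and log2 scale are known, and the centring and the software are not.

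Control and outlier spots were left out, and log2 of the processed signal was taken minus each array's 75th percentile. The arrays held 43603 probes. Some array lacked an unmarked spot for 215 of them, and 26481 (60.7%) passed the filter. Of 5779 probes with a RefSeq transcript, 5461 matched 2389 symbols through RefSeq's gene table for assembly Sscrofa11.1, which gave names and nothing else. The other probes were unnamed, and genes among them count as having no named probe. A gene was its brightest kept probe over the 8 arrays. The calls came from limma 3.58.1 (lmFit, eBayes, two-sided, Benjamini-Hochberg, threshold 0.05) in R 4.3.3, with a group by slide term for the difference between slides. The fits were tested on simulated data. Python 3.11.15, pandas 2.3.3 and matplotlib 3.10.9 were used for tables and plots.

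DCT, CPEB1, the lists and the rules were chosen with earlier results of these data known. One gene of the polyadenylation target list is not reported here and was left out of its counts. All measured genes of 5 lists are counted, and up to 5 of smallest unadjusted p in each are named, with TYR, TYRP1, MITF, KIT, GPNMB and the CPEB family added. Others named from the lists, such as MLPH, KITLG, EDNRB, ASIP, OCA2 and MC1R, were added after their values were seen. Likeness is the highest Pearson r among named genes. Alternatives were other scalings and filters, normexp (offset 50, on median spot and background intensities, since no mean was available here, without 59 spots that broke its fit), each slide, blocks on slide or replicate number, and each array left out. The row division, the subtraction of neighbouring spots and the count of genes apart were added after the data were seen.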

Additional observations from a re-analysis of the deposited data

How the results depend on the processing

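The log2 difference of DCT probe A_72_P441414 (2.00) was 0.82 with normexp, 1.24 on slide 1 alone, 2.75 on slide 2 alone and 1.79 to 2.22 with an array left out. That of CPEB1 (1.65) was 0.75 on slide 1 alone, 2.54 on slide 2 alone and 1.16 to 1.92 with an array left out. The gap between the DCT probes (2.13) was 0.88 with normexp, 1.03 on slide 1 alone, 3.23 on slide 2 alone and 1.62 to 2.45 with an array left out. The change between slides at DCT probe A_72_P170151 (-0.69) was 0.15 with normexp, 0.39 without pregnant replicate 4 and -1.76 without pregnant replicate 2. Limma called 0 genes and 0 probes between groups under every alternative run, and for the change between slides 0 probes except 2 without non-pregnant replicate 2, so the range with an array left out was 0 to 2. The 9 genes at least 2-fold higher without overlap were 1 with normexp, 0 without the spots of rows 400 to 532, and 6 to 17 with an array left out: 15 without pregnant replicate 1, 17 without replicate 3 of the non-pregnant sows, and 6 without replicate 2 of the pregnant sows. The offset of normexp shrinks log2 differences of dim spots, but normexp also changed the intensities used and the background correction. The causes of these changes were not tested.

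With the replicate number as a block, the log2 differences of 2.00 for DCT, -0.13 for its other probe and 1.65 for CPEB1 are the same by construction, limma called 0 genes, 0 probes and 0 changes between slides, and the change between slides was 1.51 for DCT (limma adjusted p = 0.459) and 1.79 for CPEB1 (limma adjusted p = 0.576). The labels do not say that the numbers mark the design's 3 half-sib pairs and 1 unrelated pair. Deviations from the group means of same-numbered sows correlated at 0.218, 0.481, 0.434 and -0.117 for replicates 1 to 4. Replicates 2 and 3 correlated best with their own number, while pregnant replicate 1 did so with non-pregnant replicate 4 (0.398) and pregnant replicate 4 with non-pregnant replicate 1 (0.386). The fit without the block was kept because not every same-numbered pair was positive. An unrelated pair need not correlate, and the design has 1, so these values cannot decide whether the numbers are pairs. The standard errors outside the block treat the sows as unpaired. The limits are 4 sows a group, 1 spot per probe and array, and probes that carry no gene name here. A further limit is dim spots. The processed signal of DCT probe A_72_P170151 was smaller than its local background. So was that of A_72_P441414 on non-pregnant replicates 2 and 4, at 20.4 and 17.7 units over 31 and 30.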
